A study of Mus musculus with 20 samples.

Results

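The genes described here are 10 interferon-inducible GTPases of the mouse, chosen by name from 55573 genes in the count files. The choice was made with earlier results of these data known. Shares of members set beside shares of all genes therefore describe this list and are not a test of it. There were 6 immunity-related GTPases (IRG), namely Irgm1, Irgm2, Igtp, Iigp1, Tgtp1 and Tgtp2, and 4 guanylate-binding proteins (GBP), namely Gbp2, Gbp3, Gbp7 and Gbp9. All 10 passed the filter on low counts, with 16509 genes tested in all.

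IRG and GBP proteins are GTPases that cells make in quantity when interferon gamma, and to a lesser degree type I interferon, reaches them. Effector IRG proteins such as Iigp1 and the Tgtp proteins assemble on the vacuoles that hold intracellular parasites and bacteria and break them open, while Irgm1, Irgm2 and Igtp sit on the cell's own membranes and hold the effectors inactive there. GBP proteins act on the same vacuoles and on bacteria released from them. In the bone marrow the family is best known through Irgm1, since mice without it have haematopoietic stem cells that divide too much and engraft poorly, a defect that depends on interferon gamma signalling.

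RNA was measured in stem cells and progenitors of C57BL/6 mice aged 7 to 9 weeks. Cells that carried Sca-1 and c-Kit and lacked lineage antigens, after a partial depletion of lineage cells, were sorted into haematopoietic stem cells (HSC, CD150+CD48-) and multipotent progenitors (MPP, CD150-CD48-). Each was split by surface staining for the leptin receptor (Lepr), the receptor for a hormone made by fat tissue. This gave 4 groups, the Lepr+ and the Lepr- fraction of the HSC and the Lepr+ and the Lepr- fraction of the MPP. Each group has 5 libraries, each made from 1000 to 8000 cells of 2 mice. The labels name no treatment and no altered allele, so the groups differ in the sort gate alone as far as the labels say. Libraries held 9532993 to 31589794 counts in genes. Levels are given as CPM, a gene's counts divided by the library's TMM-scaled total and set to a common total, and values listed for a group run from replicate 1 to replicate 5.

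The sort was checked on the RNA of its own antigens. Slamf1, which encodes CD150, had 19.6 to 66.6 CPM in Lepr+ HSC and 28.3 to 63.8 CPM in Lepr- HSC, compared with 0 to 8.07 CPM in Lepr+ MPP and 0.0697 to 10.01 CPM in Lepr- MPP. Cd48, negative in both gates, averaged 10.5 CPM in Lepr+ HSC, compared with 14.3 CPM in Lepr- HSC. In the progenitors Cd48 averaged 25.6 CPM in Lepr+ MPP, compared with 50.6 CPM in Lepr- MPP. Lepr RNA reached 9.36 CPM in Lepr+ HSC (median 0.51) and 0.16 CPM in Lepr- HSC, and it reached 38.8 CPM in Lepr+ MPP (median 27.1) and 0.77 CPM in Lepr- MPP. Lepr+ HSC replicate 5, Lepr+ MPP replicate 4 and Lepr+ MPP replicate 5 are known from an earlier analysis of these data as the 3 libraries least like their groups. The libraries also fell into 2 sets by how many genes had a count at an equal depth of 9532993 counts. There were 8 libraries with 14761 to 16461 genes and 12 libraries with 18004 to 20790 genes, and none in between. The 8 were replicates 2, 4 and 5 of both HSC groups and replicate 4 of both MPP groups. The split is therefore even between Lepr+ and Lepr- cells, but it took 6 of 10 HSC libraries and 2 of 10 MPP libraries.

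Promoters of interferon targets carry short elements that its transcription factors bind. The interferon-stimulated response element (ISRE, read here as GAAANNGAAA on either strand) is bound by interferon regulatory factors and by the complex that contains Irf9. The gamma-activated site (GAS, read here as TTCNNNGAA, whose reverse complement is the same pattern) is the element known from genes that interferon gamma induces. RefSeq promoter windows (250 bases before to 50 bases after a gene's start, build GRCm38.p6) were given for 8 of the members. All 8 held an ISRE in at least 1 window, against 3.44% of the 32851 windows of all genes. A GAS stood in the windows of 5 members, against 8.3% of all windows, and 0.454% of all windows held both. In Igtp, Irgm2, Tgtp1 and Tgtp2 the GAS began 11 bases before the ISRE. The stretches of 30 bases around the ISRE are shown because all 8 hold that element and the first 4 the GAS before it, each 5′ to 3′ on the strand of its gene, with motif bases in capitals.
Igtp, chr11:58199507-58199536, plus strand: ccatTTCTAGGAActGAAACTGAAAgctgt
Irgm2, chr11:58214898-58214927, plus strand: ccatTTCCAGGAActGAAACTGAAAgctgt
Tgtp1, chr11:48992309-48992338, minus strand: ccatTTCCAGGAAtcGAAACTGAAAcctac
Tgtp2, chr11:49064268-49064297, minus strand: ccatTTCCAGGAAtcGAAACCGAAAcctac
Irgm1, chr11:48871428-48871457, minus strand: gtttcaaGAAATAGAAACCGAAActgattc
Gbp2, chr3:142620594-142620623, plus strand: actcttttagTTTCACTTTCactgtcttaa
Gbp3, chr3:142559992-142560021, plus strand: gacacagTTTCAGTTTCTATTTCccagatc
Gbp7, chr3:142530273-142530302, plus strand: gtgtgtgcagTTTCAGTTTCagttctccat

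Irgm1 and Gbp3 each held 2 overlapping ISRE matches, and Gbp3 had a second window without a match. In the GBP genes the ISRE lay on the opposite strand. Gbp7 also held 2 GAS matches, starting 106 and 87 bases before its start and outside the stretch shown. A match is a description of the letters and not a measured binding site. Iigp1 and Gbp9 were not in the promoter table.

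Several members share sequence, which limits how far their counts can be told apart. Of the 50-base stretches of the Tgtp1 transcript, 91.4% occurred in the transcripts of another gene, first of all Tgtp2, and for Tgtp2 the share was 90.6%, first of all Tgtp1. Both lie on chromosome 11 of GRCm38, Tgtp1 at 48985327 to 48994172 and Tgtp2 at 49057194 to 49064206. Read pairs that fitted more than 1 place were set aside by the counter and made up 7.27% to 15.2% of a library, so the counts of the Tgtp pair rest on the parts that differ, and the split between them is uncertain. Igtp shared 12.3% of its 50-base stretches, first of all with Irgm2, and overlaps it over 162 exon bases on chromosome 11. Gbp7 shared 12.9%, first of all with the processed pseudogene Gm43802, which lies over 637 of its exon bases. For Gbp9 the share was 9.56%, first of all with Gbp8, and 120 of its exon bases overlap Gbp8 or Gbp4. The other members shared less, from 1.00% (Irgm1) to 7.36% (Irgm2). On chromosome 11 lie also Irgm1, at 48861968 to 48871683, Igtp, at 58199556 to 58207591, and Irgm2, at 58199618 to 58222782. The GBP genes lie on chromosome 3, with Gbp7 at 142530342 to 142550149, Gbp3 at 142560026 to 142573209 and Gbp2 at 142620602 to 142638008, and on chromosome 5, with Gbp9 at 105077630 to 105139539. Tgtp1 also overlaps Gm12185 over 223 exon bases. The overlapping genes named here lie on the same strand as the member, so strand could not separate them. The libraries kept no strand information in any case.

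Per kilobase of exon, averaged over the 20 libraries, the highest levels were those of Tgtp2 (48.5 CPM per kb) and Igtp (47.5 CPM per kb), followed by Irgm1 (30.97). Gbp2 (20.8), Irgm2 (19.8), Gbp7 (15.5), Tgtp1 (14.8) and Iigp1 (11.1) stood lower, Gbp3 had 9.49 and Gbp9 had 2.02. The SDs over libraries were 11.98 for Tgtp2 and 13.2 for Igtp, larger than the gap between them, and neighbours from Gbp2 to Gbp3 also differed by less than their SDs. The counts of Tgtp1 and Tgtp2 rest on the parts that differ, but were divided by the full exon length. Their values per kilobase are therefore likely too low, by an amount that was not measured. The places of both in the order, and that of Tgtp1 below Tgtp2, are uncertain. The order also depends on the length used. Per kilobase of the longest coding transcript, chosen after the data were seen, Irgm1, whose exons span 5810 bases but whose longest coding transcript has 2259, came first with 79.7 CPM per kb, Tgtp2 had 50.7, Igtp 47.5 and Iigp1 20.7. Irgm1 varied least over the libraries, with a coefficient of variation of 22.8%, and Gbp9 most, with 106%. Every IRG member was read in every library, from 156 counts (Tgtp1) upward at the lowest. Gbp9 had 0 counts in Lepr+ HSC replicate 4 and Lepr- MPP replicate 4. Interferon gamma itself was not detected. Ifng had 0 counts in all 20 libraries, and Ifnb1, Ifnl2, Ifnl3 and Ifne were also at 0 in every group.

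**Figure D1:**
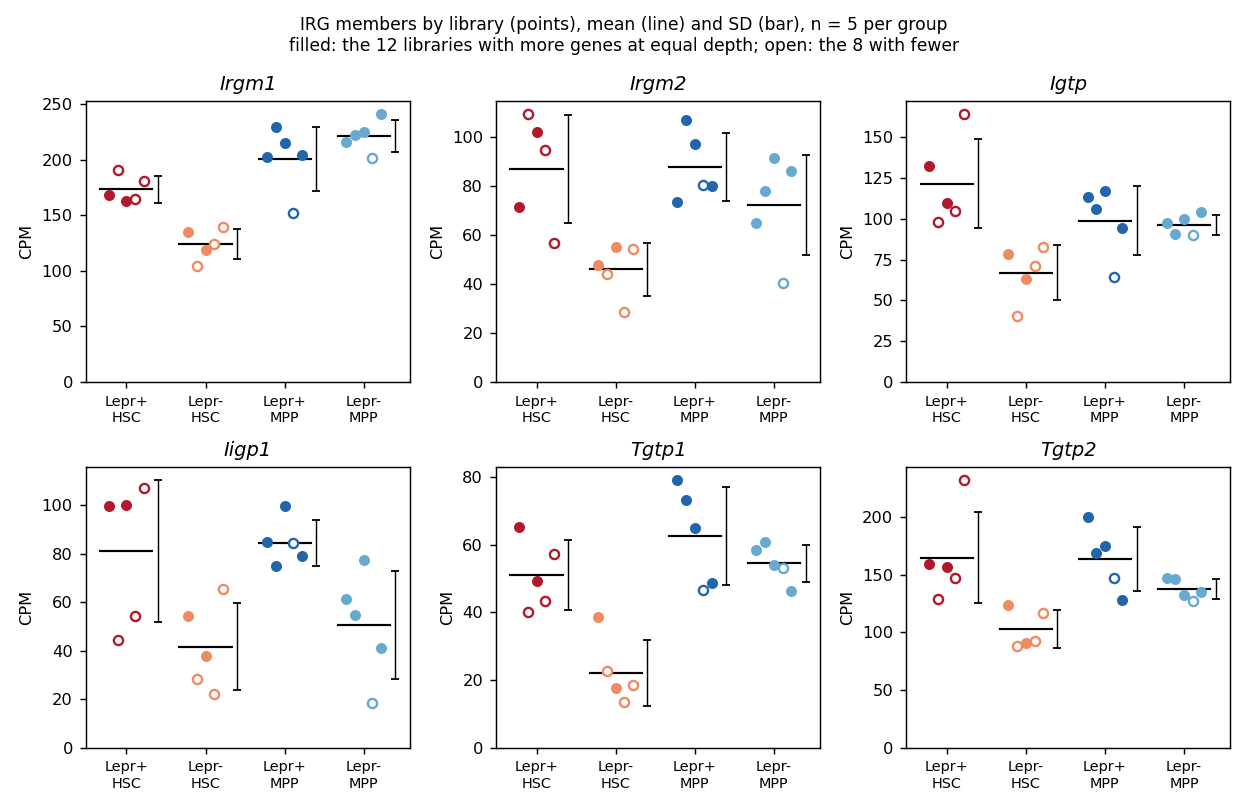
CPM of the 6 IRG members in each library (points, replicates 1 to 5 from left to right), with the group mean (line) and SD (bar, n = 5). Filled points are the 12 libraries with more genes at equal depth and open points the 8 with fewer. In all panels but that of Iigp1, all 5 Lepr+ HSC points lie above all 5 Lepr- HSC points.

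Lepr+ HSC were compared with Lepr- HSC to ask what sets apart the stem cells that carry the leptin receptor. The IRG members were higher in Lepr+ HSC in all 5 replicate pairs, by 1.40-fold (Irgm1) to 2.31-fold (Tgtp1) in the group means. Their summed level was 696, 612, 681, 609 and 798 CPM in Lepr+ HSC, compared with 477, 328, 383, 353 and 477 CPM in Lepr- HSC, with no overlap. None of the 10 members passed an adjusted p of 0.05 in edgeR's quasi-likelihood test, in which 0.103% of all genes did. With the replicate number as a block, which compares libraries that bear the same number, 5 members passed, all of them IRG and all higher in Lepr+ HSC, against 1.02% of all genes. At an unadjusted p under 0.05 there were 6 members, the 6 IRG, against 6.96% of all genes. DESeq2 called 5 members, against 1.1% of all genes, and limma voom called 0. The log2 fold changes were positive for all 10 members with a median of 0.77, against a median of -0.00 over all genes, of which 49.6% were positive.

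Among the regulators, Irgm1 had 168, 191, 163, 164 and 181 CPM in Lepr+ HSC, compared with 135, 104, 119, 124 and 139 CPM in Lepr- HSC. The lowest Lepr+ library stood above the highest Lepr- library. Its log2 fold change was 0.48 ± 0.13 (SE), with an adjusted p of 0.205 in edgeR and 0.0394 with the block. Irgm2 had 71.5, 109, 102, 94.9 and 56.7 CPM in Lepr+ HSC, compared with 47.7, 44.1, 55.3, 28.5 and 54.1 CPM in Lepr- HSC. These groups were separate by a small margin, set by Lepr+ replicate 5. The log2 fold change was 0.92 ± 0.24, with an adjusted p of 0.158 in edgeR and 0.0394 with the block. Igtp, also known as Irgm3, had 132, 97.8, 109, 104 and 164 CPM in Lepr+ HSC, compared with 78.3, 40.2, 62.8, 71.0 and 82.5 CPM in Lepr- HSC, again with no overlap. Its log2 fold change was 0.86 ± 0.20, with an adjusted p of 0.115 in edgeR and 0.0261 with the block.

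Tgtp1, an effector, had the lowest adjusted p of the family in this comparison. It had 65.2, 40.1, 49.4, 43.3 and 57.3 CPM in Lepr+ HSC, compared with 38.7, 22.5, 17.5, 13.4 and 18.5 CPM in Lepr- HSC. Lepr- replicate 1 was the highest of its group and still lay below every Lepr+ library. The log2 fold change was 1.21 ± 0.25, with an adjusted p of 0.0685 in edgeR and 0.00434 with the block. Over 15 fits that each left out 1 library or 1 replicate number, the Tgtp1 value ran from 1.07 to 1.51. Without Lepr- HSC replicate 1 it was 1.51 with an adjusted p of 0.00794, and without replicate 1 in all groups 1.42 with an adjusted p of 0.0344. Leaving out the highest library of the lower group raises the fold change by itself. Of the 150 member values in these fits, only these 2 came to pass the threshold. Tgtp2 had 159.8, 129, 157, 147 and 232 CPM in Lepr+ HSC, compared with 124, 88.7, 91.0, 92.9 and 117 CPM in Lepr- HSC. Its groups did not overlap either, and the log2 fold change was 0.68 ± 0.17, with an adjusted p of 0.13 in edgeR and 0.0349 with the block. Because the split between the copies is uncertain, the pair was also summed into 1 feature, which gave 0.79 ± 0.17 with an adjusted p of 0.0805 in edgeR.

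Iigp1 was the IRG member whose HSC groups overlapped. It had 99.9, 44.6, 100.05, 54.5 and 107 CPM in Lepr+ HSC, compared with 54.3, 28.5, 37.8, 22.4 and 65.6 CPM in Lepr- HSC. Replicates 2 and 4, whose deposited files bear a July date while the others bear a June date, were the lowest in both groups, and within each pair the Lepr+ library was higher. The log2 fold change was 0.96 ± 0.35, with an adjusted p of 0.45 in edgeR and 0.132 with the block. Iigp1 lies apart from the other IRG members, on chromosome 18 at 60376027 to 60392634 of GRCm38.

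Groups that do not overlap with Lepr+ HSC higher were found for 5 of the 10 members, against 0.999% of all genes. The separation was read within each set of libraries too. Among the 12 libraries with more genes, which hold 2 of each HSC group, the IRG log2 fold changes ran from 0.40 (Irgm1) to 1.14 (Iigp1). Among the 8 with fewer, which hold 3 of each, they ran from 0.57 (Irgm1) to 1.39 (Tgtp1). With the number of genes at equal depth as a covariate, chosen after the data were seen, 4 members passed in edgeR, namely Irgm1, Igtp, Tgtp1 and Tgtp2, against 0.812% of all genes. By month the IRG values ran from 0.38 to 1.21 in June (replicates 1, 3 and 5) and from 0.64 to 1.53 in July, with 0 of all genes called in either month. Without the 3 libraries least like their groups they ran from 0.47 to 1.16. In sorted bulk samples, more cells that express a gene and more RNA of it in each cell cannot be told apart.

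**Figure D2:**
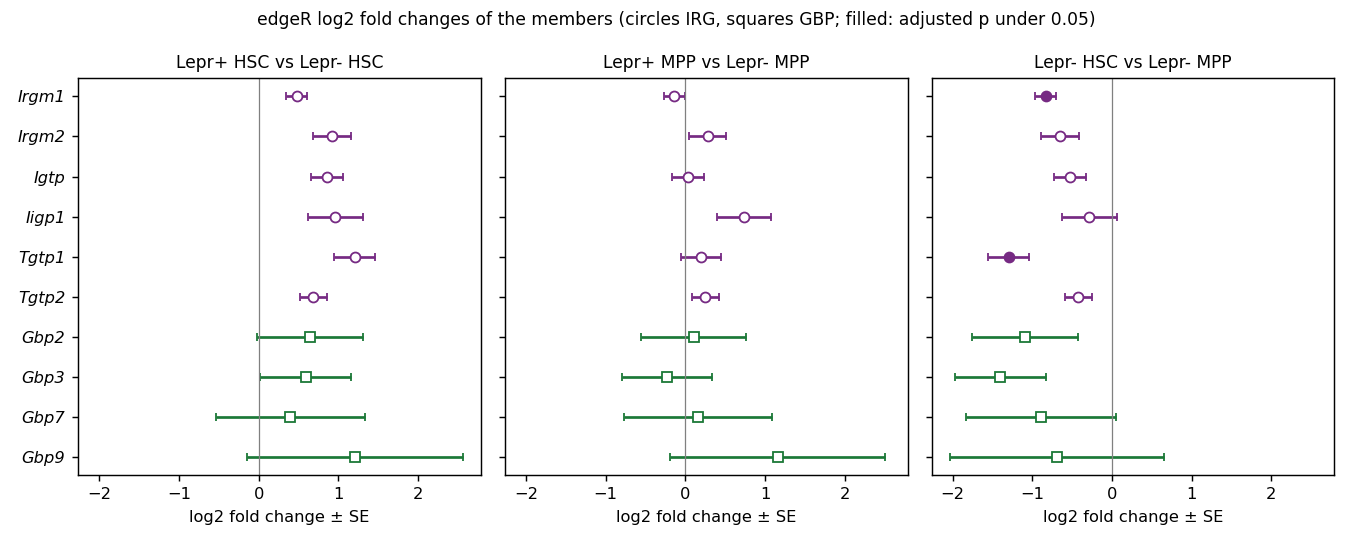
edgeR log2 fold changes with their SE for the 10 members (rows; circles IRG, squares GBP) in 3 comparisons, filled where the adjusted p was under 0.05. In the HSC comparison all 10 lie above 0 and the GBP bars are wide, in the MPP comparison the values lie near 0 except Iigp1 and Gbp9, and in Lepr- HSC against Lepr- MPP all 10 lie below 0.

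The GBP members were also higher in Lepr+ HSC in the fitted values, with log2 fold changes of 0.40 (Gbp7) to 1.21 (Gbp9), but their SEs ran from 0.57 to 1.36 and every adjusted p was 1.00. Their groups overlapped in each case. Gbp7, a member linked in mouse macrophages to the phagocyte oxidase, had the second widest error. It had 147, 9.81, 172, 12.1 and 25.02 CPM in Lepr+ HSC, compared with 115, 12.1, 117, 13.6 and 19.9 CPM in Lepr- HSC. Replicates 1 and 3 were high and replicates 2, 4 and 5 low in both groups. In the progenitors it had 139, 196, 161, 19.8 and 59.5 CPM in Lepr+ MPP, compared with 137, 134, 152, 2.092 and 90.2 CPM in Lepr- MPP. There replicate 4 was the low one in both groups.

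These are the libraries of the split by genes at equal depth. Over all groups Gbp7 ran from 59.5 to 196 CPM in the 12 libraries with more genes and from 2.092 to 25.02 CPM in the 8 with fewer, with no overlap and a ratio of medians of 10.7. The median ratio over all tested genes was 1.13, and 25.1% of tested genes had a ratio over 3. Gbp9 had a ratio of medians of 24.8, Gbp3 of 3.89 and Gbp2 of 3.39. The IRG members had ratios of 1.15 (Tgtp2) to 1.54 (Iigp1). Not every GBP value of the low set was small, since Gbp3 had 47.3 CPM in Lepr- MPP replicate 4 and Gbp2 had 51.6 CPM in Lepr+ HSC replicate 5. The part of library quality in these differences was not tested.

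**Figure D3:**
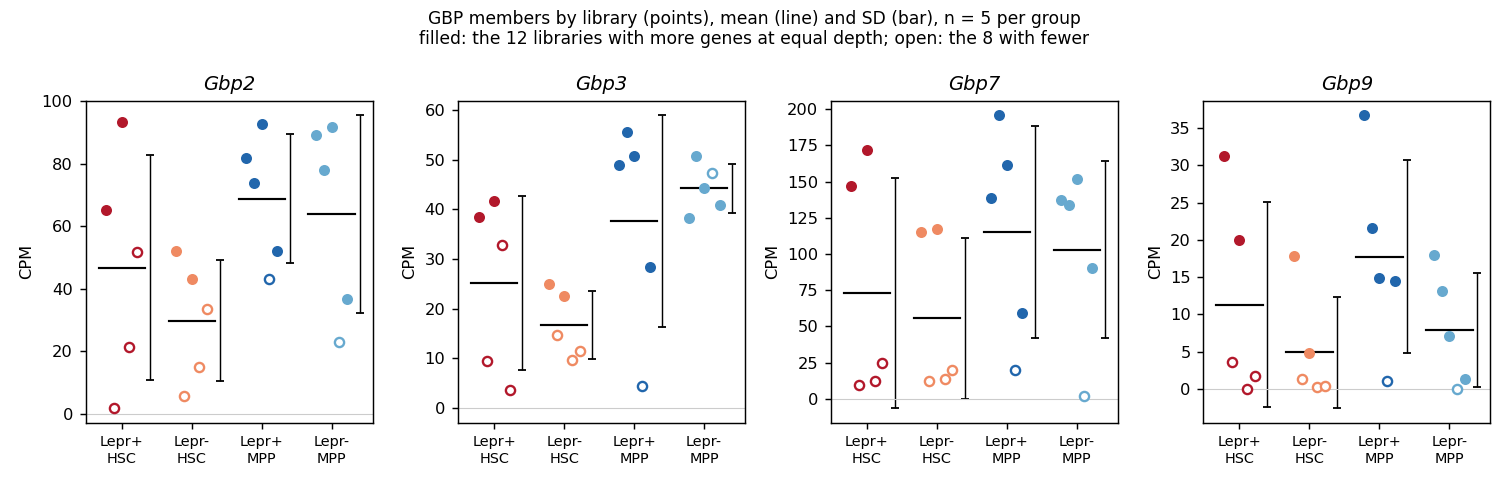
CPM of the 4 GBP members in each library (points, replicates 1 to 5 from left to right), with the group mean (line) and SD (bar, n = 5). Open points, the 8 libraries with fewer genes at equal depth, lie low in every group for Gbp7 and Gbp9, whether the cells were Lepr+ or Lepr-.

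**Figure D4:**
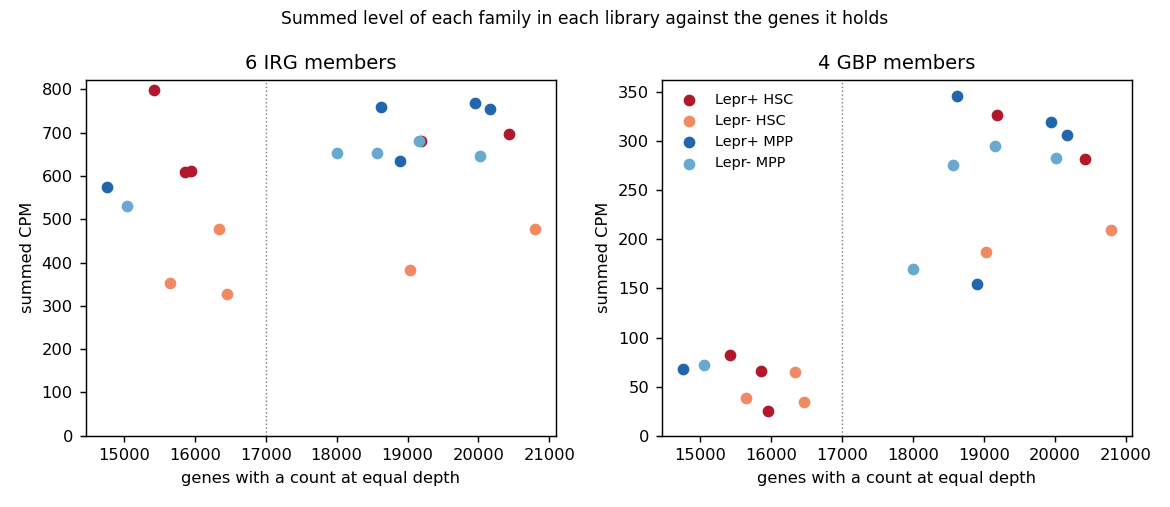
Summed CPM of the 6 IRG members (left) and of the 4 GBP members (right) in each of the 20 libraries, against the number of genes with a count at equal depth, with the dotted line between the 2 sets. The GBP sum lies at 24.8 to 81.9 CPM in the 8 libraries left of the line and at 155 to 347 CPM right of it, while the IRG sum separates Lepr+ HSC from Lepr- HSC on both sides.

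Gbp2, which coats parasite vacuoles in mouse cells, averaged 46.7 ± 35.96 CPM in Lepr+ HSC, compared with 29.9 ± 19.3 CPM in Lepr- HSC (SD, n = 5 each). Gbp3, its neighbour in the gene cluster on chromosome 3, averaged 25.2 ± 17.5 CPM in Lepr+ HSC, compared with 16.7 ± 6.78 CPM in Lepr- HSC. Gbp9, of the cluster on chromosome 5, averaged 11.3 ± 13.7 CPM in Lepr+ HSC, compared with 4.88 ± 7.47 CPM in Lepr- HSC. In each of these the larger SD exceeded the difference. The families also differ in structure. Each GBP gene has 10 coding exons, of which the largest holds 14.7% to 15.9% of the coding sequence, while in the IRG genes 1 exon holds 96.9% to 100% of it. The part of gene structure in the spread was not tested.

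Lepr+ MPP were then compared with Lepr- MPP, to ask whether progenitors show the same difference. In edgeR 0 of 10 members passed, against 0.2% of all genes, and with the block 0 passed, against 0.103%. DESeq2 and limma voom also called 0. The log2 fold changes were positive for 8 members, with a median of 0.18 (over all genes 0.01). At an unadjusted p under 0.05 there was 1 member, Iigp1, against 4.41% of all genes. Iigp1 had 84.8, 74.8, 99.9, 84.4 and 79.2 CPM in Lepr+ MPP, compared with 61.5, 54.7, 77.7, 18.5 and 41.3 CPM in Lepr- MPP. It was higher in 5 of 5 pairs, although the groups overlapped, and the log2 fold change was 0.74 ± 0.34 with an adjusted p of 1.00 in edgeR. Irgm1 had 203, 229, 215, 152 and 204 CPM in Lepr+ MPP, compared with 216, 223, 225, 202 and 241 CPM in Lepr- MPP. Here the Lepr+ library was lower in 4 of 5 pairs, with a log2 fold change of -0.14 ± 0.13. Tgtp1 had 79.1, 73.2, 64.8, 46.6 and 48.7 CPM in Lepr+ MPP, compared with 58.3, 60.7, 54.0, 53.2 and 46.3 CPM in Lepr- MPP, with a log2 fold change of 0.20 ± 0.25. The other IRG groups overlapped as well. Irgm2 ran from 73.6 to 107 CPM in Lepr+ MPP, compared with 40.4 to 91.5 CPM in Lepr- MPP, with a log2 fold change of 0.28 ± 0.24. Igtp ran from 64.0 to 117 CPM in Lepr+ MPP, compared with 89.9 to 104 CPM in Lepr- MPP, with 0.04 ± 0.20. Tgtp2 ran from 128 to 200.1 CPM in Lepr+ MPP, compared with 127 to 148 CPM in Lepr- MPP, with 0.25 ± 0.17. The GBP log2 fold changes ran from -0.23 (Gbp3) to 1.16 (Gbp9), with SEs of 0.56 to 1.35. Gbp9 had 36.7, 21.6, 14.9, 0.989 and 14.5 CPM in Lepr+ MPP, compared with 18.0, 13.1, 7.11, 0 and 1.37 CPM in Lepr- MPP, and was higher in 5 of 5 pairs.

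Markers of other cells moved with Lepr status in the progenitors. Of 16 stromal markers, all tested, 6 rose in Lepr+ MPP, among them Cxcl12, Adipoq and Igfbp5, and 3 passed with the block, Cxcl12, Dcn and Igfbp5. Their summed level ran from 159 to 3408 CPM in Lepr+ MPP, compared with 56.5 to 89.6 CPM in Lepr- MPP. No stromal marker was at 0 over all Lepr+ MPP libraries, while Adipoq, Pdgfra, Lum and Ebf3 were at 0 in Lepr- MPP. Of 13 endothelial markers tested, 4 rose, and 2 passed with the block, Fabp4 and Aplnr. Over all genes 0.2% passed in this comparison, and 0.103% with the block. The endothelial sum ran from 409.99 to 1052 CPM in Lepr+ MPP, compared with 259 to 422 CPM in Lepr- MPP. In HSC no stromal or endothelial marker passed in edgeR without the block, and Aplnr passed with it, against 1.02% of all genes. Adipoq averaged 3.60 CPM in Lepr+ HSC, compared with 0.00675 CPM in Lepr- HSC, and Fabp4 averaged 14.7 CPM in Lepr+ HSC, compared with 0.998 CPM in Lepr- HSC. The summed stromal level ran from 40.9 to 254 CPM in Lepr+ HSC, compared with 23.8 to 255 CPM in Lepr- HSC, and the endothelial sum from 576 to 959 CPM in Lepr+ HSC, compared with 597 to 1146 CPM in Lepr- HSC. Although these sums overlap, 13 of 16 stromal markers had positive values in Lepr+ HSC against Lepr- HSC (median log2 fold change 1.88). So had 11 of 13 endothelial markers (median 1.00). The stromal list holds Lepr, the gene of the antigen that splits the groups. B and plasma cell markers summed to 84.2 to 4478 CPM in Lepr+ MPP, compared with 112 to 280.1 CPM in Lepr- MPP, and to 51.9 to 644 CPM in Lepr+ HSC, compared with 44.6 to 109.8 CPM in Lepr- HSC. Igkc, an immunoglobulin light chain gene, averaged 106.6 ± 153.6 CPM in Lepr+ HSC, compared with 0.261 ± 0.287 CPM in Lepr- HSC, with an adjusted p of 0.144 in edgeR and 0.0498 with the block. T and NK cells are the known makers of interferon gamma. Their 16 markers, of which Nkg7 had most of the counts, summed to 72.7 to 167 CPM in Lepr+ HSC, compared with 117 to 244 CPM in Lepr- HSC, with Cd3d, Cd3g, Cd8a and Cd8b1 at 0 in Lepr+ HSC and Cd3e, Cd3g, Cd2, Cd5, Cd8a, Gzma, Ncr1 and Prf1 at 0 in Lepr- HSC. Of these markers 6 were tested, 4 had positive values in Lepr+ HSC against Lepr- HSC, and 0 passed in edgeR, while Nkg7 passed with the block, lower in Lepr+ HSC. Red cell markers, 12 of 12 tested, had negative values for 10 in Lepr+ HSC against Lepr- HSC (median -1.46, 0 passed in either fit) and for 11 in Lepr+ MPP against Lepr- MPP. Of these, Gata1 fell in Lepr+ MPP, with an adjusted p of 0.0433 in edgeR and 0.0612 with the block. In the averaged contrast Gata1 fell in edgeR, and Gata1, Klf1 and Car1 passed with the block, against 2% of all genes. Of 12 monocyte and macrophage markers 10 had positive values in Lepr+ MPP against Lepr- MPP (median 0.90). In Lepr+ HSC against Lepr- HSC 6 had (median 0.14). Of 6 neutrophil markers tested 4 were positive in the MPP and 5 in the HSC comparison. Of 4 dendritic cell markers tested 2 and 3 were. In these 3 lists 0 passed in either comparison, in either fit. The part of these cells in the IRG and GBP values was not tested.

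Averaged over HSC and MPP, the Lepr contrast was positive for all 10 members, with a median log2 fold change of 0.46 (over all genes 0.01). In edgeR 0 members passed, against 0.842% of all genes, and 5 of 10, all IRG, had an unadjusted p under 0.05, against 8.8%. With the block 4 passed, against 2% of all genes, namely Irgm2, Iigp1, Tgtp1 and Tgtp2. DESeq2 called 4, against 2.4% of all genes, limma voom called 0, and with the covariate for genes at equal depth there were 3, against 1.73%. Tgtp1 and Tgtp2 summed had a log2 fold change of 0.51 ± 0.12 with an adjusted p of 0.0487 in edgeR. Iigp1 had the largest averaged value among the IRG, at 0.85 ± 0.24, with an adjusted p of 0.132 in edgeR and 0.0251 with the block.

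Whether the Lepr difference in HSC exceeds that in MPP was tested as an interaction. In edgeR 0 members and 0 of all genes passed (0%), with and without the block. DESeq2 called 0 members and limma voom 0. The difference between the log2 fold changes was positive for all 10 members, with a median of 0.58 (over all genes -0.02). At an unadjusted p under 0.05 there were 3 members, against 3.2% of all genes, and these were Irgm1 (0.62 ± 0.19), Igtp (0.82 ± 0.29) and Tgtp1 (1.01 ± 0.35). The GBP values here had SEs of 0.80 to 1.88. So the HSC difference is not shown to differ from the MPP difference at this number of libraries.

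Lepr- HSC were compared with Lepr- MPP, the stem cells against the progenitors without the receptor. Here 2 members fell, Irgm1 and Tgtp1, in edgeR with and without the block, against 2.73% of all genes without the block and 7.5% with it. All 10 log2 fold changes were negative, with a median of -0.76 (over all genes 0.01), and 6 had an unadjusted p under 0.05, against 12.3%. Irgm1 had 135, 104, 119, 124 and 139 CPM in Lepr- HSC, compared with 216, 223, 225, 202 and 241 CPM in Lepr- MPP. Each Lepr- HSC library lay well below each Lepr- MPP library. Its log2 fold change was -0.83 ± 0.13, with an adjusted p of 0.000965 in edgeR. Tgtp1 had 38.7, 22.5, 17.5, 13.4 and 18.5 CPM in Lepr- HSC, compared with 58.3, 60.7, 54.0, 53.2 and 46.3 CPM in Lepr- MPP, also with no overlap. Its log2 fold change was -1.30 ± 0.25, with an adjusted p of 0.00559 in edgeR. Summed with Tgtp2 it was -0.62 ± 0.17 with an adjusted p of 0.0581, so the call holds for the reads given to Tgtp1 and not for the pair. Tgtp1 also missed the threshold without replicate 2 (adjusted p 0.0739) and without replicate 3 (adjusted p 0.0778).

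The groups did not overlap, with Lepr- HSC lower, for 5 members, Irgm1, Igtp, Tgtp1, Tgtp2 and Gbp3, against 3.43% of all genes. Igtp averaged 66.97 ± 16.7 CPM in Lepr- HSC, compared with 96.4 ± 6.10 CPM in Lepr- MPP (SD, n = 5 each), with an adjusted p of 0.245 in edgeR. Tgtp2 averaged 103 ± 16.4 CPM in Lepr- HSC, compared with 138 ± 8.86 CPM in Lepr- MPP, with an adjusted p of 0.263. Gbp3 averaged 16.7 ± 6.78 CPM in Lepr- HSC, compared with 44.3 ± 4.93 CPM in Lepr- MPP, the largest fitted difference of the family at -1.40 ± 0.58, with an adjusted p of 0.288. When the spread was estimated without the 3 libraries least like their groups, none of which is in these 2 groups, Gbp3 passed with an adjusted p of 0.0229. This comparison is uneven in the split by genes at equal depth, since 3 of the 5 Lepr- HSC libraries and 1 of the 5 Lepr- MPP libraries were in the low set. Among the 12 libraries with more genes alone, Irgm1 had a log2 fold change of -0.84 with an adjusted p of 0.0139, Tgtp1 had -0.97 with 0.159, and Gbp7 and Gbp9 had -0.15 and 0.18. By month Irgm1 had -0.81 in June and -0.93 in July, where 0 members passed.

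Lepr+ HSC against Lepr+ MPP gave smaller fitted values. In edgeR 0 members passed, against 0.466% of all genes, and with the block 0, against 1.77%. None had an unadjusted p under 0.05, against 7.89%, and DESeq2 and limma voom also called 0. The log2 fold changes were negative for 8 members, with a median of -0.25 (over all genes -0.02). The 6 IRG ran from -0.29 (Tgtp1) to 0.30 (Igtp). The summed IRG level was 609 to 798 CPM in Lepr+ HSC, 575 to 769 CPM in Lepr+ MPP and 531 to 681 CPM in Lepr- MPP, which overlapped each other, and 328 to 477 CPM in Lepr- HSC, below all other groups. Comparisons that share a group are not independent, and the Lepr- HSC libraries enter every comparison in which an IRG member passed in any fit.

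The members varied together to different degrees. Over the 20 libraries the log2 levels of IRG members correlated with each other at a Pearson's r of 0.35 to 0.84 (15 pairs, median 0.63), highest for Igtp with Tgtp2. GBP members correlated with each other at 0.41 to 0.86 (6 pairs, median 0.51), highest for Gbp7 with Gbp9. IRG with GBP pairs ran from 0.03 to 0.62 (24 pairs, median 0.40), lowest for Iigp1 with Gbp3. The split of reads between Tgtp1 and Tgtp2 is uncertain, so their r is not one of separately measured genes. Gbp7 and Gbp9 both differed between the sets of 12 and 8 libraries, with ratios of medians of 10.7 and 24.8. The part of these in the r values was not tested. The libraries fall into groups and sets, so these values describe the deposited libraries and carry no test.

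**Figure D5:**
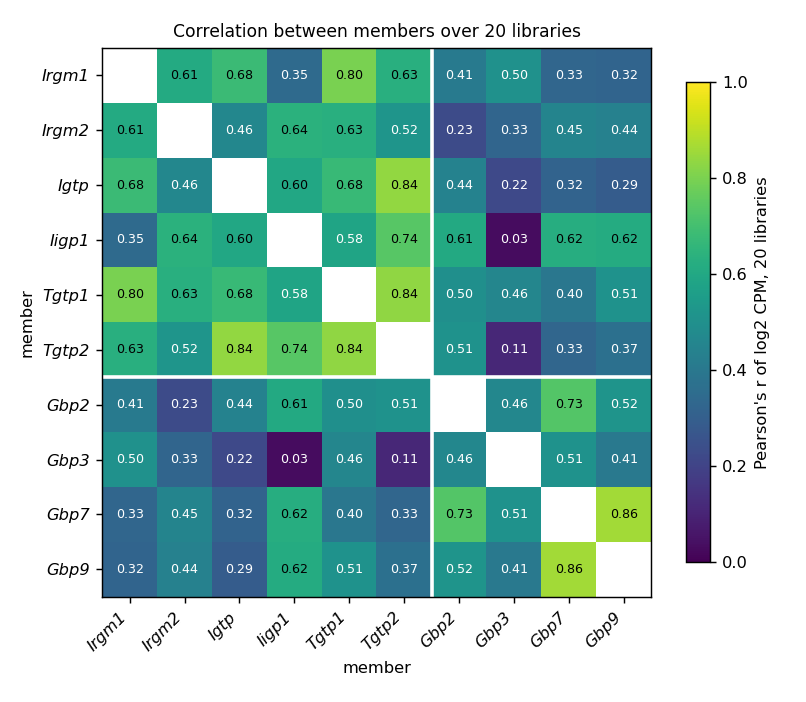
Pearson's r between the log2 CPM of each pair of members over the 20 libraries, IRG first and GBP after the white line. Igtp and Tgtp2 (0.84), Tgtp1 and Tgtp2 (0.84) and Gbp7 and Gbp9 (0.86) are the highest values, and Iigp1 with Gbp3 (0.03) the lowest. Tgtp1 and Tgtp2 share most of their sequence, and Gbp7 and Gbp9 both lie low in the libraries with fewer genes at equal depth.

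The genes whose log2 level followed the mean of the 10 members most closely over the 20 libraries, among 10722 genes with a mean of at least 5 CPM, were Ifi203 (r = 0.95), Zbtb20 (0.95), Chd6 (0.94), Jak1 (0.94), Ppp3ca (0.93), Irf2 (0.93), Parp9 (0.93) and Lcp1 (0.93). Ifi203 belongs to the interferon-inducible p200 family, Jak1 is the kinase shared by the receptors of interferon gamma and type I interferon, and Irf2 is an interferon regulatory factor that binds the ISRE. No such link is given here for Zbtb20, Chd6, Ppp3ca, Parp9 and Lcp1. The levels were centred but not scaled, so the members that vary most weigh most in this mean. Among these are Gbp7 and Gbp9, with ratios of medians of 10.7 and 24.8 between the sets of 12 and 8 libraries. The part of that split in this ranking was not tested. After each gene was centred on its group means the closest were Arpc1b (0.99), Ddx50 (0.98) and Ubxn4 (0.97). Against the mean of the 6 IRG alone, a profile chosen after the data were seen, the closest were Gimap6 (0.96), Pik3ip1 (0.94) and Gimap5 (0.91), of which the Gimap genes encode GTPases of another family. The 20 points share library quality and depth, so these values are a description.

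The interferon gamma pathway upstream of the family was read from 18 genes for receptors, kinases, factors and inhibitors, all tested. In Lepr+ HSC against Lepr- HSC 1 rose, against 0.103% of all genes. It was Irf9, the DNA-binding part of a complex that binds the ISRE. Irf9 averaged 147 ± 25.6 CPM in Lepr+ HSC, compared with 80.6 ± 17.0 CPM in Lepr- HSC, a log2 fold change of 0.87 ± 0.17 with an adjusted p of 0.0411 in edgeR. Of the 18 genes 16 had positive values, with a median of 0.42. Irf1, which interferon gamma induces through a GAS, averaged 110 ± 17.6 CPM in Lepr+ HSC, compared with 74.1 ± 10.3 CPM in Lepr- HSC, with an adjusted p of 0.326. Irf8 had a log2 fold change of 1.17 ± 0.51 and an adjusted p of 0.641. In Lepr+ MPP against Lepr- MPP 14 of the 18 genes had positive values, with a median of 0.06. In Lepr- HSC against Lepr- MPP 4 of the 18 fell, against 2.73% of all genes. With the block 7 fell, against 7.5% of all genes, namely Ifngr1, Ifngr2, Stat3, Irf1, Irf9, Socs3 and Ptpn6. Ifngr1, the ligand-binding chain of the interferon gamma receptor, averaged 114 ± 14.5 CPM in Lepr- HSC, compared with 213 ± 52.5 CPM in Lepr- MPP.

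Other targets of interferon had mostly positive values in HSC, with few calls. Of 24 interferon gamma targets outside the GTPases 21 were tested. In Lepr+ HSC against Lepr- HSC 0 passed in edgeR, 17 had positive values and 2 passed with the block, against 1.02% of all genes. These were Cd74, the invariant chain of MHC class II (log2 fold change 1.56 ± 0.45), and Ly6a (1.33 ± 0.33), which encodes Sca-1, an antigen of the sort gate. Cd74 rose in the averaged contrast in edgeR, against 0.842% of all genes. In Lepr+ MPP against Lepr- MPP 16 of the 21 had positive values and 0 passed in edgeR. With the block Cd74 passed there too (log2 fold change 1.69 ± 0.45 in edgeR), against 0.103% of all genes. All 25 type I interferon targets had positive values in HSC, with a median of 0.36 and 0 calls, and 1 passed with the block, Rtp4. Rtp4 averaged 131 ± 65.2 CPM in Lepr+ HSC, compared with 64.6 ± 22.5 CPM in Lepr- HSC. In Lepr+ MPP against Lepr- MPP 13 of the 25 had positive values, with 0 calls in either fit. In Lepr- HSC against Lepr- MPP 3 of the 25 fell, against 2.73% of all genes, and 10 with the block, against 7.5%. Of the 21 interferon gamma targets tested, 2 fell and 1, Serpina3g, rose in that comparison in edgeR. With the block 3 fell, Tap2, Tapbp and Ly6a, and Serpina3g rose. The median of the 21 was -0.18. The 15 genes of the autophagy conjugation pathway, to which IRGM proteins are known to be linked, had 15 positive values in HSC, with a median of 0.21 and 0 calls in either fit. Gabarapl1 had 0.34 ± 0.14 with an adjusted p of 0.58 in edgeR. In Lepr+ MPP against Lepr- MPP 10 of the 15 had positive values.

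Of 19 other IRG, GBP and Gvin genes 16 passed the filter. In Lepr+ HSC against Lepr- HSC 0 passed in edgeR, with or without the block, and all 16 had positive values, with a median of 1.05. In Lepr+ MPP against Lepr- MPP 0 passed in either fit and 11 of the 16 had positive values, with a median of 0.20. Gbp8, which shares sequence with Gbp9, averaged 19.0 ± 12.6 CPM in Lepr+ HSC, compared with 5.73 ± 5.20 CPM in Lepr- HSC, a log2 fold change of 1.73 ± 0.99 with an adjusted p of 0.874 in edgeR. That list does not hold Ifi47, a further IRG gene, chosen here after its values were seen. Ifi47 averaged 309 ± 130.4 CPM in Lepr+ HSC, compared with 304 ± 109 CPM in Lepr- HSC, a log2 fold change of 0.03 ± 0.33 with an adjusted p of 1.00 in edgeR. Gm12250, an IRG gene, averaged 47.5 ± 11.9 CPM in Lepr+ HSC, compared with 40.02 ± 11.7 CPM in Lepr- HSC. Most of the rest were scarce. Gbp2b had 9 counts and Gm17662 had 0 counts in all libraries together.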

How the data were processed

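RNA of 20 sorted bulk libraries, 5 in each of 4 groups, was amplified with SMART-Seq v4 and made into non-stranded libraries with Nextera XT, per the labels' protocols. The authors deposited raw counts of reads per gene, made with FastQC 0.11.8, cutadapt 2.1, STAR 2.7.1a and HTSeq 0.11.2 on GRCm38, per the submitters' processing notes. The counting mode is not given in the sources used here. The 5 closing lines of each file, which name no gene, were left out; of these, pairs in no gene made up 7.22% to 17.7% of a library and ambiguous pairs 5.58% to 6.73%. Gene identifiers were matched to GENCODE M21 for 55480 of 55573 genes.

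Genes were tested with edgeR 4.0.16 in R 4.3.3 on the deposited counts, with TMM factors and a robust quasi-likelihood fit of the 4 groups over all 20 libraries. Low counts were filtered with filterByExpr (minimum count 10, minimum total count 15). The minimum count is not required in every library, so a gene with 0 counts in some libraries can pass. P-values were adjusted by Benjamini-Hochberg over 16509 genes, with a threshold of 0.05. Alternatives were RLE factors, DESeq2 1.42.0, limma 3.58.1 with voom, no filter, a replicate block, each month alone, libraries left out and the Tgtp pair summed. The covariate for genes at equal depth and the fits within the sets of 12 and 8 libraries were added after the data were seen. The spread that p-values rest on is that between these libraries, each from 2 mice.

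Replicate numbers come from the sample titles, the design text gives 2 mice for a replicate, and the deposited files of 1 number bear 1 date in all groups. Deviations from the group means had a median correlation of 0.264 (range -0.0647 to 0.562) over 30 pairs of libraries with the same number. Over 120 pairs from different groups with different numbers it was -0.0857 (range -0.418 to 0.346). Centring on the group means ties these medians together, so the second is not separate evidence. The number was taken as a pairing in the block and in the counts of replicate pairs. The main edgeR fit held the groups alone, so its p-values do not use the pairing. The members and lists were chosen with earlier results of these data known. Genes named outside the members were the 8 with the highest correlation to the family's mean log2 level (mean of at least 5 CPM) and, of each list, up to 3 genes with the smallest p in the averaged Lepr contrast. Ifngr1, Ifi47, Gbp2b, Gm17662, genes called in a list and the antigens of the sort were added after their values were seen. Depth ran from 9532993 to 31589794 counts per library.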

Additional observations from a re-analysis of the deposited data

Results flagged for a closer look

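Of 40 sets of values, 1 for each member in each group, 1 held a library far from the others, where chance gives about 1 in 20. Gbp9 in Lepr- HSC replicate 1 had 17.8 CPM, while the other 4 libraries ran from 0.171 to 4.75 CPM. The gap to the nearest library was 0.741 of the range of the group, above Dixon's critical value of 0.71 for 5 samples. That library is in the set with more genes at equal depth, as is the next highest, replicate 3. The part of that set in the value was not tested.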

How the results depend on the processing

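Members called changed with the fit. Lepr+ HSC against Lepr- HSC gave 0 in edgeR, 5 in DESeq2, 5 with the replicate block and 4 with the covariate for genes at equal depth, and 0 to 1 when single libraries or replicates were left out. The averaged contrast gave 0, then 4 in DESeq2, 4 with the block, 3 with the covariate, 1 without the 3 libraries (Tgtp2) and 0 to 1 with single ones left out. Lepr- HSC against Lepr- MPP gave 2, then 0 in June alone, 0 in July alone, 1 among the 12 libraries and 1 to 2 with single ones left out. The cause was not tested, but months and sets hold fewer samples. The block changed no other member call. Over all genes, edgeR called 17 in the HSC comparison (DESeq2 182, block 169, covariate 134, without the 3 libraries 8, within months or sets 0). In the MPP comparison it called 33 (214 in DESeq2, 54 in voom, 17 with the block, 54 with the covariate, 6 in the 12 libraries, 0 within months or without the 3). In the averaged contrast it called 139 (397, block 331, covariate 285, 12 libraries 3, months 0). Lepr- HSC against Lepr- MPP had 451 (844, block 1238, covariate 899, June 81, July 0, without the 3 libraries 768), Lepr+ HSC against Lepr+ MPP had 77 (337, voom 119, block 293, covariate 154, 12 libraries 34, months 0), and the interaction had 0 (DESeq2 19, covariate 1). 

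Log2 fold changes of members that turned sign were these, and their cause was not tested. Lepr+ HSC against Lepr- HSC had Gbp7 at -0.199 in July, and -0.1995 to 0.862 with single libraries left out. Lepr+ MPP against Lepr- MPP had Igtp at -0.081 in July, Gbp3 at 0.043 and Gbp7 at -0.085 in June, and Gbp3 at 0.229 without the 3 libraries and 0.096 among the 12. With single libraries left out Igtp ran from -0.030 to 0.159, Gbp2 from -0.106 to 0.275, Gbp3 from -0.416 to 0.093 and Gbp7 from -0.157 to 0.429. The averaged contrast had Gbp3 at -0.024 with the covariate, and Gbp7 at -0.020 to 0.510 with single ones left out. Lepr- HSC against Lepr- MPP had Gbp9 at 0.181 among the 12. Lepr+ HSC against Lepr+ MPP, whose IRG values were near 0, had Irgm2 at 0.116 in July, 0.024 without the 3 libraries and 0.052 with the covariate, Igtp at -0.018 without the 3, and Iigp1 at 0.226 in June, 0.047 with the covariate and 0.241 among the 12. Tgtp2 was at -6.963e-05 with RLE, -0.00157 in DESeq2, -0.055 in voom, -0.00296 with the block, -0.201 in July, -0.296 without the 3, -0.087 among the 12 and -0.068 summed with Tgtp1. Among the 12, Gbp2, Gbp7 and Gbp9 were at 0.078, 0.197 and 0.215. With single ones left out Irgm2 ran from -0.1098 to 0.106, Iigp1 from -0.220 to 0.094 and Tgtp2 from -0.240 to 0.1098. The interaction had Iigp1 at -0.132 and Gbp7 at -0.883 in July, Gbp9 at -0.078 in June, Gbp2, Gbp7 and Gbp9 at -0.057, -0.484 and -1.27 in voom, Gbp7 and Gbp9 at -0.108 and -0.846 with the block, and at -0.067 and -0.137 without the 3. With single ones left out Iigp1 ran from -0.019 to 0.448, Gbp7 from -0.358 to 0.704 and Gbp9 from -0.786 to 1.60. No other member value turned sign. Counts went down to 0 for Gbp9.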

Other observations

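Ifi47, an IRG gene outside the 10 members, averaged 220.1 ± 80.8 CPM in Lepr+ MPP, compared with 229.7 ± 86.0 CPM in Lepr- MPP (SD, n = 5 each), below its HSC means of 309 CPM (Lepr+) and 304 CPM (Lepr-), with no comparison passing in edgeR. Of 14 stem cell markers 2 rose in Lepr+ HSC against Lepr- HSC in edgeR, Procr and Hlf, against 0.103% of all genes. With the block 6 passed, against 1.02% of all genes. In that HSC comparison 11 of the markers had positive values (median log2 fold change 0.52), as had 10 in Lepr+ MPP against Lepr- MPP (median 0.41), where 0 passed in either fit. Procr, a receptor that marks stem cells, averaged 99.2 ± 27.3 CPM in Lepr+ HSC, compared with 30.9 ± 11.03 CPM in Lepr- HSC, and Hlf, a transcription factor of stem cells, averaged 325.5 ± 46.8 CPM in Lepr+ HSC, compared with 154 ± 37.3 CPM in Lepr- HSC. Their part in the IRG values was not tested. Of the T and NK markers Nkg7 averaged 80.6 ± 39.04 CPM in Lepr+ HSC, compared with 173 ± 54.9 CPM in Lepr- HSC, with an adjusted p of 0.204 in edgeR and 0.00366 with the block.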
